A study of Mus musculus with 6 samples.

Results

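Homeostatic microglia are told apart from other brain macrophages by a small set of transcripts, and 9 of these identity genes were followed here: *Tmem119*, *Fcrls*, *Olfml3*, *Sparc*, *Gpr34*, *Selplg*, *Slco2b1*, *Crybb1* and *Slc2a5*. They were taken as a list of symbols, and every non-control array probe whose transcript accession carried one of those symbols was included. This gave 11 probes for the 9 genes, of 56605 probes and 23462 named genes on the array, with 7 genes on 1 probe and 2 genes, *Sparc* and *Gpr34*, on 2 probes.

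Microglia are the resident macrophages of the brain, and their identity program is set by lineage factors such as PU.1 and maintained by signals from the brain, among them TGF-beta. Genes of this program encode surface and secreted proteins by which the cells sense and shape their surroundings, and in many activated states of microglia their transcripts decline. Bhlhe41 is a transcriptional repressor of the basic helix-loop-helix family that binds E-box sequences, so the comparison asks whether the identity genes depend on it in unchallenged young animals.

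The 6 arrays, each a 1-colour hybridization of Cy3-labeled RNA, compared 3 *Bhlhe41* dTomato-Cre/+ samples (B41HET, the controls) with 3 *Bhlhe41* dTomato-Cre/dTomato-Cre samples (B41KO), all from 3-month-old mice. Both genotypes carry the knock-in reporter allele, a dTomato-2A-Cre-polyA cassette placed ahead of the start codon of *Bhlhe41*, so the controls have 1 unmodified copy and wild-type microglia were not on these arrays. The allele is carried by every cell of the animal and not by microglia alone. According to the Methods, live CD45lo Cx3cr1+ CD11b+ cells were sorted after Percoll enrichment, and each sample was pooled from 10 to 15 mice, whereas the labels give 3 for each genotype without a word on pooling.

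All 6 arrays lay on 1 slide, with the 3 B41HET arrays and B41KO replicate 1 in row 1 and B41KO replicates 2 and 3 in row 2. Between 70.1% and 75.5% of probes were well above background on an array, and 0 spots were saturated. Values below are quantile-normalized log2 intensities, and a probe was called if its Benjamini-Hochberg adjusted p from limma, over all probes, was at most 0.05 and its log2 fold change at least 0.5 in size. The *Bhlhe41* transcript was not lower in B41KO, with log2 fold changes of 0.38 (SE 0.20, adjusted p = 0.330 from limma) on its brighter probe and 0.33 (SE 0.13, adjusted p = 0.203) on its dimmer probe. For protein, the paper reports that Bhlhe41 was completely lost in B41KO microglia by Western blot, with a higher dTomato signal by flow cytometry. Where these probes lie relative to the cassette was not analysed here, so *Bhlhe41* RNA does not check the labels and the samples are called by their labelled genotype. With 3 samples against 3, an exact permutation test of a single probe cannot give a two-sided p below 0.1.

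The identity genes were strongly expressed in both genotypes, and only *Fcrls* was called, a call that it lost when slide row or replicate number entered the model as a block. Its signal in B41KO microglia was 59.1% of that in B41HET microglia (95% interval 52.9% to 66.1%). The other 8 genes were not called, with log2 fold changes from -0.24 for *Sparc* to 0.37 for *Slc2a5* on their brightest probes. All 11 probes were well above background on all 6 arrays, so the defining markers of the sorted cell type were present in every sample. By count, 1 of 11 member probes was called lower (background over all probes tested, 3.34%) and 0 were called higher (background 1.72%). Either way, 5.07% of all 56601 probes tested were called, and by brightest probe 1 of the 9 member genes was called, beside 5.45% of all named genes (4.01% lower and 1.44% higher). Among the 2309 named genes whose mean signal was at least that of the dimmest member, *Gpr34*, 225 or 9.74% were called, 202 lower (8.75%) and 23 higher (0.996%). A count of 1 in 9 does not stand out from this background. At an unadjusted p under 0.05 in limma there were 4 member probes, those of *Fcrls*, *Selplg* and *Slc2a5* and the dimmer *Sparc* probe, where 23% of all probes and 42.7% of the 2309 genes at or above the dimmest member reached it. The median log2 fold change over the 9 genes was -0.07, beside 0.01 over all named genes and -0.05 over those 2309 genes.

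**Figure D1:**
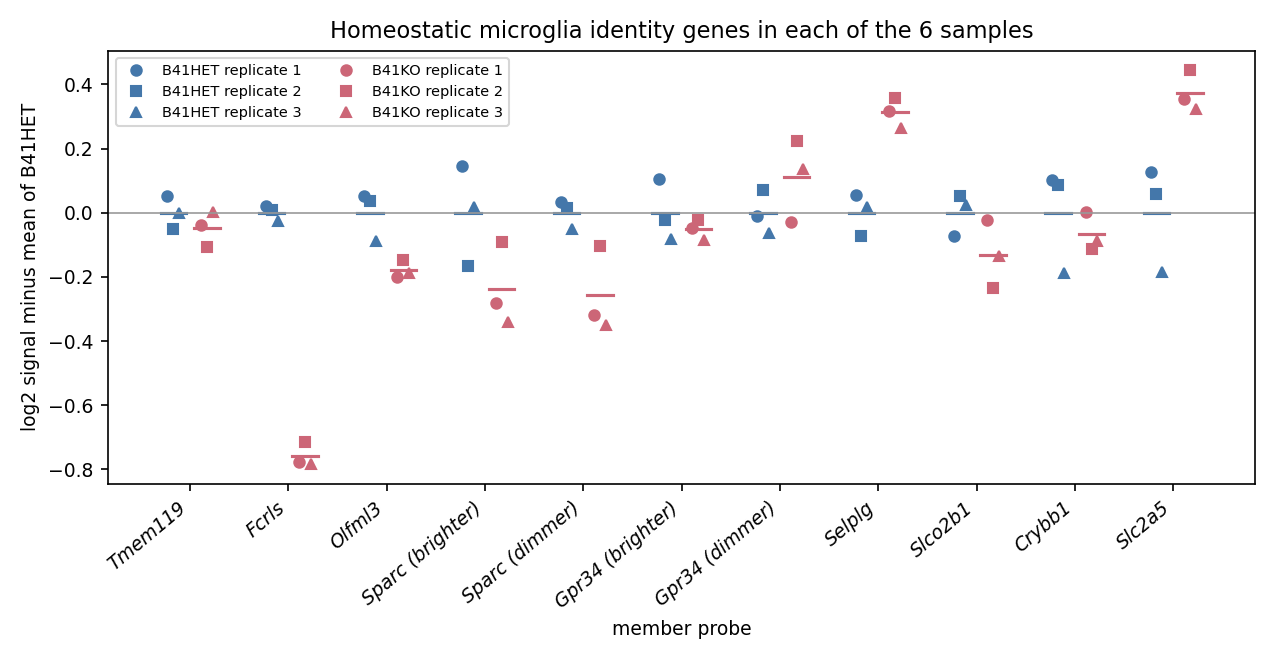
Log2 signal of each member probe in each sample, minus the mean of the 3 B41HET samples of that probe (y axis, log2 units), for the 11 probes (x axis). Points are samples, marker shape gives the replicate number and short lines are group means. The B41KO samples of *Fcrls* lie about 0.76 below B41HET, those of *Selplg* and *Slc2a5* lie 0.31 and 0.37 above it, and the others lie closer to 0.

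*Fcrls* encodes an Fc receptor-like protein with immunoglobulin and scavenger receptor domains, which in the mouse brain marks microglia. On its single probe the log2 signal was 12.76, 12.74 and 12.71 in the B41HET samples, as against 11.96, 12.02 and 11.95 in the B41KO samples. The genotypes did not overlap, and the gap of 0.69 between the nearest samples was far wider than the spread within a genotype, with an SD of 0.02 in B41HET and of 0.04 in B41KO (n = 3 each). The log2 fold change was -0.76 (SE 0.07, 95% interval -0.92 to -0.60, adjusted p = 0.00581 from limma). Among 23462 genes by brightest probe it ranked 724 from the lowest, and 5.71% of all probes had a larger absolute fold change. When the slide row entered the model as a block, so that only B41KO replicate 1 stood against the 3 B41HET arrays, the log2 fold change was -0.78 and its adjusted p of 0.0619 no longer passed.

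Because a shift of whole arrays could move all members together, each gene was also set against the median of the other 8 on the same array, a measure that scaling of arrays cannot change. On this scale *Fcrls* lay at -0.05, 0.02 and 0.03 in the B41HET samples, centred on their own mean, and at -0.73, -0.60 and -0.68 in the B41KO samples. The mean difference was -0.67 (SD 0.07 in B41KO, n = 3, exact permutation p = 0.1, the smallest this design allows). *Fcrls* thus lay lower in B41KO relative to its fellow identity genes and not only relative to the array as a whole. Of the other members, *Selplg* (0.42) and *Slc2a5* (0.47) also lay outside the B41HET range in all 3 B41KO samples on this measure.

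Bhlhe41 is described as binding the E-box CACGTG, and RefSeq promoter windows on GRCm38.p6, from 250 bases before to 50 after a gene start, could be matched for 6 of the 9 genes, in 8 windows. Neither the palindromic E-box CACGTG nor the related hexamer CACGTT, searched on both strands, was found in any of the 8 windows, where 7.15% and 4.68% of all 32851 windows held them. Their absence from 8 windows does not stand out beside shares this low. Sequence beyond the windows was not searched, and the Bhlhe41-bound sites that the paper reports include some further upstream than these windows reach. The purine-rich core GAGGAA found in PU.1 sites, on either strand, was present in 4 of the 8 windows, that of *Fcrls* and the 3 windows of *Slco2b1*, beside 28.3% of all windows. The window of *Fcrls*, the one gene called, lies at chr3:87263475-87263774 on the minus strand. It has a GC content of 48.0%, beside a median of 52.7% over all windows. It is shown 5′ to 3′ with the GAGGAA core in capitals, which begins 144 bases before the start:
Fcrls: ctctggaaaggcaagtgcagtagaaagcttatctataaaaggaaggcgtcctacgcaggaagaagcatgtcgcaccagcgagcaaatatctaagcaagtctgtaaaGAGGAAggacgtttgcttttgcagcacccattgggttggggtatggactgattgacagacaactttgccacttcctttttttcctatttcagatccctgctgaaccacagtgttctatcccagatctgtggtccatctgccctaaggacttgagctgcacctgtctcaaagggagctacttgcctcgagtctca
These matches describe the letters in the windows and no binding was measured.

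*Selplg* and *Slc2a5* had the largest positive differences, and neither was called. *Selplg* encodes PSGL-1, the selectin ligand by which leukocytes roll on vessel walls. Its probe gave 13.18, 13.05 and 13.14 in the B41HET samples and 13.44, 13.48 and 13.39 in the B41KO samples, all of the latter higher by a gap of 0.21. The log2 fold change was 0.31 (SE 0.07, 95% interval 0.13 to 0.49, adjusted p = 0.0658 from limma), so the interval left out both no difference and the fold threshold of 0.5.

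*Slc2a5* encodes the fructose transporter GLUT5, which in the brain is found on microglia. It gave 12.21, 12.14 and 11.90 in the B41HET samples and 12.44, 12.53 and 12.41 in the B41KO samples. The genotypes again did not overlap, with a gap of 0.20, although B41HET replicate 3 lay below the other controls. The log2 fold change was 0.37 (SE 0.10, 95% interval 0.12 to 0.63, adjusted p = 0.1 from limma), and the upper end of that interval reached past the fold threshold. The window of *Slc2a5*, shown for contrast with that of *Fcrls*, lies at chr4:150119094-150119393 on the plus strand of GRCm38.p6, has a GC content of 65.3% and holds none of the motifs, so no letters are in capitals:
Slc2a5: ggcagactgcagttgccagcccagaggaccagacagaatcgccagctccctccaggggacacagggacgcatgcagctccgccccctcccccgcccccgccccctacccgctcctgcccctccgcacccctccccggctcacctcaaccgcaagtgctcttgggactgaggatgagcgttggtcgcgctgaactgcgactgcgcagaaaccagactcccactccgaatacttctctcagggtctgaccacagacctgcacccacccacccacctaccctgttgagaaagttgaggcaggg

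*Sparc* and *Olfml3*, which encode secreted proteins, had small negative differences. *Sparc* encodes a collagen-binding matricellular glycoprotein that endothelial cells and other glia make too. Its brighter probe gave 14.14, 13.83 and 14.01 in the B41HET samples and 13.71, 13.90 and 13.65 in the B41KO samples. The groups overlapped there, since B41KO replicate 2 lay above B41HET replicate 2, and the log2 fold change was -0.24 (SE 0.12, 95% interval -0.53 to 0.05, adjusted p = 0.298 from limma). The dimmer *Sparc* probe gave 13.53, 13.51 and 13.44 in B41HET and 13.17, 13.39 and 13.14 in B41KO, without overlap and with a gap of 0.05. Its log2 fold change of -0.26 (SE 0.09, 95% interval -0.48 to -0.03, adjusted p = 0.171) differed from that of the brighter probe by -0.02 (95% interval -0.32 to 0.28, adjusted p = 0.945 over 10305 probe pairs of all genes, of which 5.96% were called). Both probes thus gave nearly the same estimate, and neither was called.

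*Olfml3* encodes an olfactomedin-like secreted glycoprotein. Its log2 signals were 14.70, 14.68 and 14.56 in the B41HET samples and 14.45, 14.50 and 14.46 in the B41KO samples. Every B41KO sample was lower, by a gap of only 0.06, and the log2 fold change of -0.18 (SE 0.07, 95% interval -0.36 to 0.002, adjusted p = 0.221 from limma) did not pass. Between genotypes, 5 of the 11 member probes did not overlap, 3 lower and 2 higher in B41KO, where 29.7% of all probes did not overlap, 15.2% lower and 14.5% higher. Of the genes at or above the dimmest member by signal, 54.7% did not overlap, so the members' share does not stand out.

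*Tmem119*, *Gpr34*, *Slco2b1* and *Crybb1* had the smallest differences of the list. *Tmem119*, a single-pass membrane protein whose antibody is widely used to separate microglia from infiltrating macrophages, gave 14.91, 14.81 and 14.86 in the B41HET samples and 14.82, 14.75 and 14.86 in the B41KO samples. The samples overlapped, and the log2 fold change was -0.05 (SE 0.07, 95% interval -0.22 to 0.13, adjusted p = 0.753 from limma). On a linear scale, *Tmem119* in B41KO microglia was therefore between 85.6% and 109.4% of its B41HET signal.

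*Gpr34*, a G protein-coupled receptor for lysophosphatidylserine, is read by 2 probes. The brighter gave 10.54, 10.42 and 10.36 in B41HET and 10.39, 10.42 and 10.36 in B41KO, a log2 fold change of -0.05 (SE 0.08, 95% interval -0.25 to 0.14, adjusted p = 0.751). The dimmer gave 10.11, 10.19 and 10.05 in B41HET and 10.09, 10.34 and 10.25 in B41KO, a log2 fold change of 0.11 (SE 0.09, 95% interval -0.12 to 0.34, adjusted p = 0.553). Their signs differed, the groups overlapped on both, and the difference between the probes of 0.16 (95% interval -0.14 to 0.47, adjusted p = 0.467) did not pass.

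*Slco2b1*, an organic anion transporter, gave 12.09, 12.22 and 12.19 in the B41HET samples and 12.14, 11.93 and 12.03 in the B41KO samples, with a log2 fold change of -0.13 (SE 0.09, 95% interval -0.34 to 0.08, adjusted p = 0.443). *Crybb1*, which encodes a beta crystallin best known from the eye lens, gave 14.49, 14.48 and 14.20 in the B41HET samples and 14.40, 14.28 and 14.30 in the B41KO samples. Here B41HET replicate 3 was the lowest of all 6 samples, and the log2 fold change was -0.07 (SE 0.10, 95% interval -0.32 to 0.19, adjusted p = 0.766). For both genes the samples of the genotypes overlapped.

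**Figure D2:**
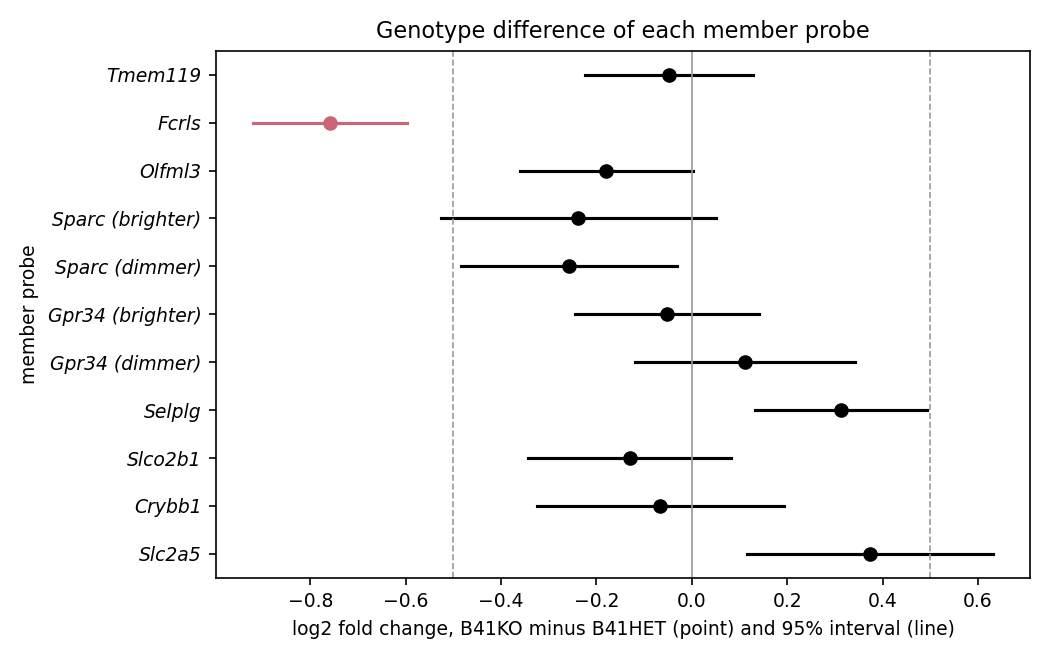
Log2 fold change of each member probe, B41KO minus B41HET (x axis, points), with its 95% interval from limma (lines); dashed lines mark the fold threshold of 0.5 in either direction and color marks the called probe. The interval of *Fcrls*, -0.92 to -0.60, lies wholly below the threshold, and 8 of the 11 intervals lie wholly inside it.

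How much change these data leave room for can be read from the intervals. On 8 of the 11 probes, and on the brightest probe of 6 of the 9 genes, the 95% interval lay wholly within 0.5 of 0. *Tmem119* was bounded most tightly, with no value beyond 0.22 in either direction, followed by *Gpr34* on its brighter probe (0.245, or 0.34 on its dimmer one). The exceptions besides *Fcrls* were the brighter *Sparc* probe, whose interval reached -0.53, and *Slc2a5*, whose interval reached 0.63. These intervals are per probe and were not adjusted for the number of probes.

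The members were next set beside 30 other genes of the homeostatic program and its regulators, all of them well above background on all 6 arrays. None of the 30 was called by limma (background 5.45% of named genes), with 8 at an unadjusted p under 0.05 (25% of all named genes reached it), and their median log2 fold change was -0.0002, with a range from -0.43 to 0.32. The interval lay within 0.5 of 0 for 21 of them. *P2ry12*, the ADP receptor that steers microglial processes, gave 12.87, 12.80 and 12.82 in B41HET and 12.57, 12.52 and 12.56 in B41KO, all of the latter lower (log2 fold change -0.28, SE 0.07, adjusted p = 0.0644). *Cx3cr1*, the fractalkine receptor used in the sort, had a log2 fold change of -0.24 (SE 0.08, adjusted p = 0.140). *Spi1*, which encodes PU.1, and the transcription factor gene *Mef2c* were singled out after their values were seen, as the 2 of the 30 at an adjusted p of 0.05 or less. Their log2 fold changes of -0.39 (SE 0.08, adjusted p = 0.0420) and -0.43 (SE 0.09, adjusted p = 0.0459) were short of the fold threshold. Blocking on slide row moved *Spi1* to -0.31 (log2 fold change, adjusted p = 0.268) and *Mef2c* to -0.54 (adjusted p = 0.133). Leaving out any 1 of the 6 samples took both above an adjusted p of 0.05, with log2 fold changes of -0.44 to -0.36 for *Spi1* and -0.47 to -0.37 for *Mef2c*.

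Of 14 genes that rise in disease-associated microglia, 7 had positive and 7 negative fold changes. Among them 2 were called lower, *Lgals3* (-1.62) and *Apoe* (-0.68), and 1 higher, *Cd63* (0.72). *Lgals3* and *Cd63* were named after their values were seen. *Ctsd* (0.10) and *Cd9* (0.39), with *Apoe* the brightest of the list, were not called. The median of the list was 0.02, a value near 0 whose sign turned without B41HET replicate 3, B41KO replicate 1 or B41KO replicate 2, and *Gpnmb* and *Spp1* were not well above background on any array. The count of 3 was 2 without B41HET replicate 2, 1 with the slide row block and 0 with the replicate block.

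Markers of other cells and of handling also differed between the genotypes, and their part in the difference of *Fcrls* and in the smaller differences was not tested. In sorted cells measured in bulk, fewer cells of a type and less RNA per cell cannot be told apart. Of 12 border macrophage markers, 12 had negative fold changes and 5 were called lower (median log2 fold change -0.87), and the log2 of their summed signal was 11.33 to 11.44 in B41HET and 10.81 to 10.94 in B41KO. *Cbr2* was among those called (-1.44), while the brighter *Stab1* (-0.49) and *Folr2* (-0.25) were not. With normexp background correction *Cbr2* was -0.73, and it lost its call with the slide row block and with the replicate block. The border macrophage count was 3 without B41HET replicate 1 or 3, 2 without replicate 2 of either genotype, 2 with normexp background correction (median -0.25), 1 with a slide row block and 0 with a replicate block. Of 12 neutrophil and monocyte markers, 9 were called lower (median -2.16), and their log2 summed signal was 14.93 to 15.10 in B41HET and 12.53 to 12.65 in B41KO. The brightest of them, *Lcn2* (-1.81), *Ltf* (-3.17) and *Ngp* (-3.13), encode granule proteins of neutrophils and were all called. This count stayed at 9 with any 1 sample left out and with the slide row block and was 5 with the replicate block. None of the markers on either list was below background on all 6 arrays. Of 11 early response genes that rise during cell isolation, 6 were called lower (median -0.55, log2 summed signal 15.79 to 15.86 in B41HET and 15.04 to 15.14 in B41KO), among them *Atf3* (-1.27), *Fosb* (-0.92) and *Jun* (-0.55). That count was 3 without B41HET replicate 1, B41HET replicate 2 or B41KO replicate 1, 1 with the slide row block and 0 with the replicate block. With the slide row block *Fosb* (-0.79, adjusted p = 0.0708) and *Jun* (-0.49, adjusted p = 0.151) lost their calls, and *Jun* was not called when any 1 of the 6 samples was omitted either (-0.57 to -0.50, adjusted p = 0.0528 to 0.0839).

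Markers of other cells that make *Sparc* were read as well. The sort selected CD45lo Cx3cr1+ CD11b+ cells, and how fully it left out those other cells was not tested. Of 10 endothelial markers 2 were called lower, *Ly6c1* (-1.79) and *Pecam1* (-1.68), while the median of the list was -0.07 and *Cdh5*, *Flt1* and *Tek* were not well above background on any array. The log2 summed signal of the list was 10.41 to 10.54 in B41HET and 9.39 to 9.43 in B41KO. *Ly6c1* and *Pecam1* were the brightest of the list in B41HET and so weighed most in that sum. *Abcb1a* (0.17), *Cldn5* (-0.13) and *Slco1a4* (0.04), the last 2 named after their values were seen, were not called. With the replicate block 0 endothelial markers were called, and the sign of the list's median turned with normexp (0.0025), with a shift to the 75th percentile (0.08) and without B41HET replicate 2 (0.0074). Of 8 astrocyte markers 0 were called, with a median of 0.08 that turned with the slide row block (-0.04) and without B41KO replicate 3 (-0.0085), and a log2 summed signal of 11.61 to 11.69 in B41HET and 11.75 to 11.83 in B41KO. The brightest astrocyte markers were *Sox9* (0.07), *Slc1a3* (0.18) and *Aqp4* (0.23). Of 8 pericyte and fibroblast markers 1 was called lower, with a median of 0.07 and a log2 summed signal of 7.79 to 7.93 in B41HET and 7.68 to 7.88 in B41KO. The count was 0 with normexp, with either block and without any 1 sample other than B41KO replicate 1, and the median was -0.0067 without B41HET replicate 2. *Lum*, *Pdgfrb* and *Rgs5* of that list were not well above background on any array. Its brightest genes, *Col1a2* (-0.01), *Kcnj8* (0.31) and *Col1a1* (0.13), were not called.

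**Figure D3:**
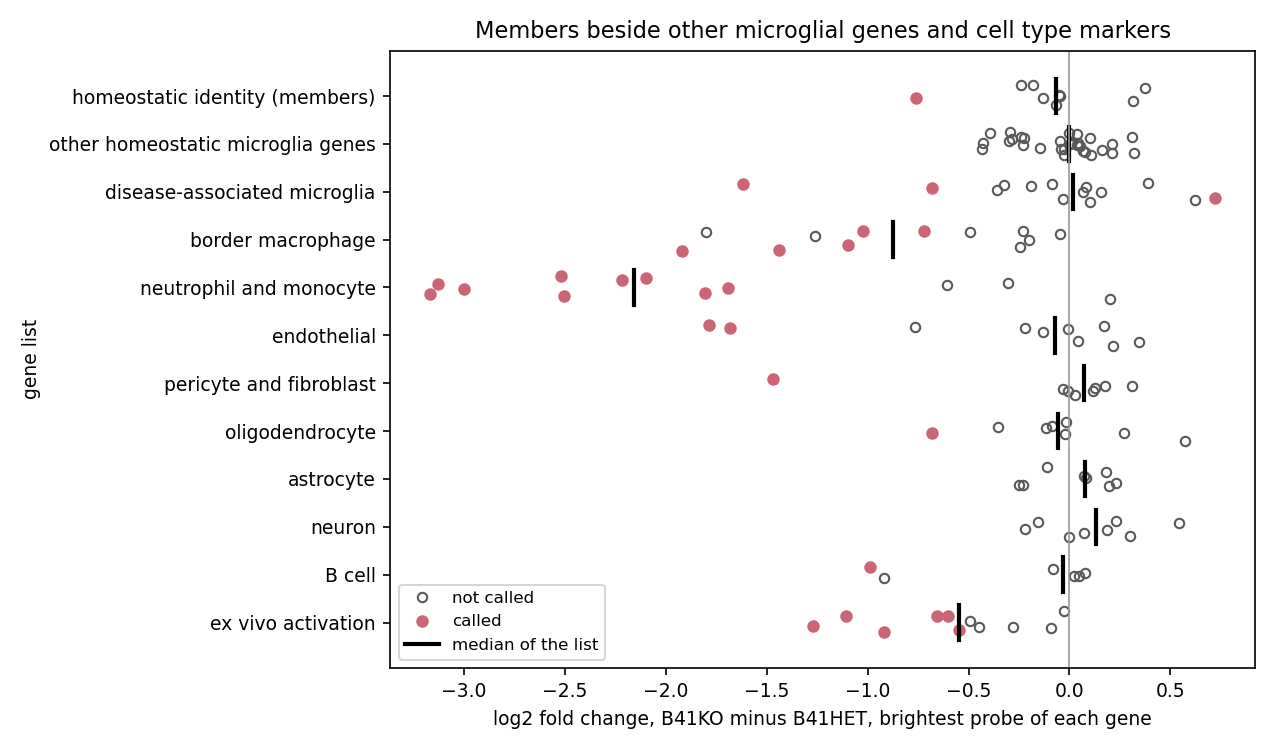
Log2 fold change, B41KO minus B41HET (x axis), of the brightest probe of each gene in 12 gene lists (y axis); points are genes, filled where called, and vertical bars are list medians. The members and the 30 other homeostatic genes gather near 0 with *Fcrls* apart, whereas the neutrophil and monocyte list has a median of -2.16.

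The members were also followed sample by sample. The mean of the 9 genes, each centred on its own mean over the 6 samples, was 0.11, 0.04 and -0.01 in the B41HET samples and -0.03, -0.03 and -0.07 in the B41KO samples. Each gene was then set against that mean, which contains it. Over these 6 samples *Olfml3* (Pearson r = 0.91) and *Gpr34* (0.90) followed that mean most closely, *Slco2b1* (0.29) least, and *Selplg* (-0.63) and *Slc2a5* (-0.38) ran against it. Among 17198 other genes well above background on all arrays, those with the closest pattern were *Reep5*, *Psma1*, *Kif21b*, *Henmt1* and *Swt1*, with Pearson r from 0.992 to 0.997 over the 6 samples. Under 11 alternatives the lowest r of each of them lay between 0.83 (*Reep5*) and 0.88 (*Swt1*). These correlations rest on 6 samples that include the genotype difference, and they describe likeness of pattern only.

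**Figure D4:**
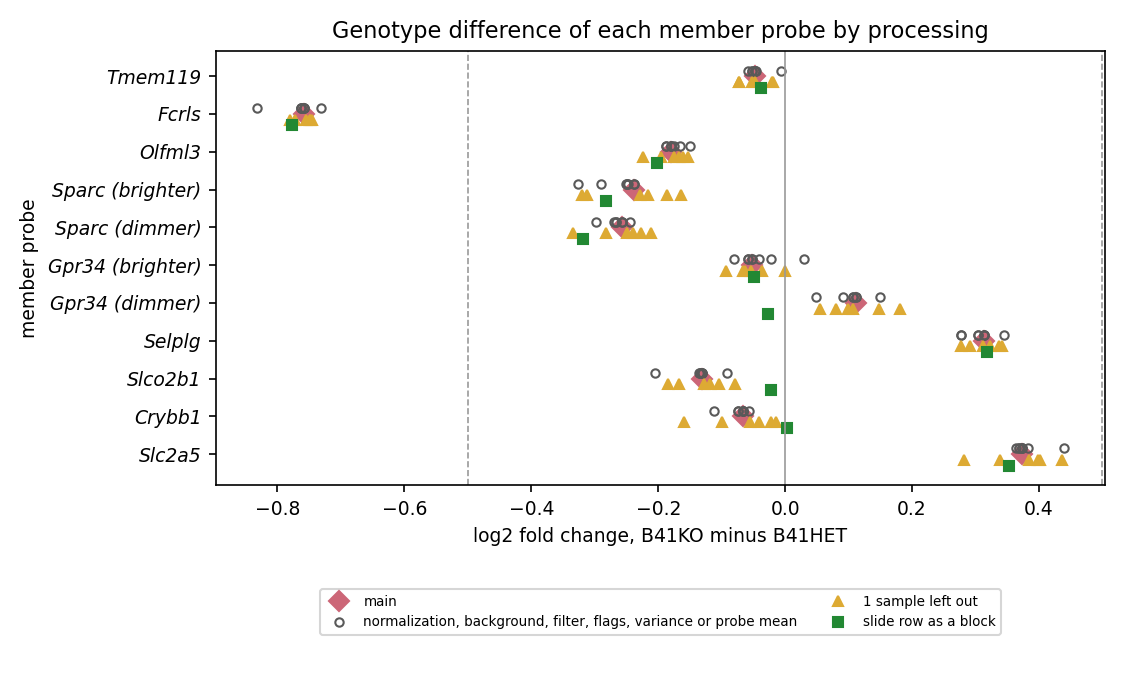
Log2 fold change of each member probe, B41KO minus B41HET (x axis), as reported (diamonds) and under other processing: normalization, background correction, filters, flags, variance model or the mean over probes (open circles), with 1 sample left out (triangles) and blocked on slide row (squares). Dashed lines mark the fold threshold of 0.5. *Fcrls* stays between -0.83 and -0.73 throughout, and no other member reaches 0.5 in either direction.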

How the data were processed

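The authors deposited 1 Agilent Feature Extraction 11.5.1.1 output per array and, for the series, a file of processed values. The deposited intensities are background-subtracted and detrended within each array and not normalized between arrays. The deposited table, whose log base is not stated, has 56745 entries with equal quantiles in all 6 columns (median 5.10). It ranked the probes as the arrays did (Spearman 0.999999 to 1), and from the range of its values the deposited table was taken to hold log2 values that the authors had quantile normalized, and it served as an alternative.

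Control spots were left out (59305 of 62976 spots kept), as were 95 to 136 outlier spots per array. Log2 intensities were quantile normalized, spots of a probe averaged, and genotypes compared with limma 3.58.1 in R 4.3.3 with genotype as the only term. Of 56605 probes, 56601 had values in at least 2 samples of each genotype and were tested, with Benjamini-Hochberg adjustment over all. Normalization, test and thresholds follow the study's methods, which name limma 3.54.2. The brightest probe stood for a gene.

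Accessions, without versions, were matched to RefSeq genes on GRCm38.p6, naming 33767 probes (59.7%). The array design names mm9, so gene positions are not given and promoter windows were matched by symbol. Probe sequences were not used here. Plots used matplotlib 3.10.9 (Python 3.11.15).

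Members and gene lists were chosen with earlier results of these data known. Named by rule were all members, *P2ry12*, *Cx3cr1*, *Bhlhe41*, any other homeostatic gene called, up to 3 of the brightest genes of each other list, and the 5 genes most like the members. Lists not described in the text are only plotted, and 1 gene that the rule also names is not reported here. Nothing says which mice went into which pool. The tests therefore set the genotype difference against the spread between samples, and the spread between single mice was not measured.

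Alternatives were a shift to the 75th percentile, the authors' values, normexp with an offset of 50 on median signals, outlier spots kept, leaving out probes that fewer than 3 arrays measured well above background, trend and robust variance, a block for replicate number or for slide row, omission of each sample, no fold threshold or one of 1, and the mean over probes. Removal of outlier spots after normalization, the within-array measure and the bounds from intervals were added after seeing the data. Same-numbered samples of the 2 genotypes had correlations of deviations from group means of 0.01 to 0.05, so the numbers were not taken as pairs. Slide and scan are shared by all arrays.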

Additional observations from a re-analysis of the deposited data

How the results depend on the processing

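The number of arrays limits precision, and calls across the whole array moved more than the members did. *Fcrls* stayed between -0.83 and -0.73 on the log2 scale under the 16 alternatives that refit or rescale it and kept its call in 14 of them. With 1 sample left out its adjusted p was 0.0264 to 0.0412. It lost its call with the slide row as a block (adjusted p = 0.0619). The numbers do not pair the samples, and with the replicate number as a block (replicate block) *Fcrls* kept its log2 fold change of -0.76 with an adjusted p of 0.0716. Under both blocks, and with a log2 fold change of 1 or more required, 0 member probes were called lower, and 0 were called higher under any alternative. The count over all probes, 2867, was 1500 with normexp, 42 with the replicate block, 444 with the slide row block, 799 at a log2 fold change of 1 or more and 792 to 1525 with 1 sample left out. Fewer residual degrees of freedom remain under either block and with a sample left out; the cause of the other shifts was not tested. Differences near 0 changed sign without a call: the brighter *Gpr34* probe gave 0.0296 as the mean over its probes and -0.0926 to 0.0002 with 1 sample left out, and the dimmer gave -0.0274 with the slide row block. *Crybb1* gave 0.0036 with that block. *Selplg* and *Slc2a5* reached adjusted p-values of 0.0143 and 0.0452 with trend and robust variance and of 0.0351 and 0.0242 with normexp, and the dimmer *Sparc* probe one of 0.0278 with normexp, in each case under the fold threshold. The 75th percentile shift moved the median of all probes from 0.02 to 0.13, so that *Fcrls* lay further below that median there.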
